A study of Mus musculus with 2 samples.

Results

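Free RNA in the islet library of wild-type (WT) mice was read from droplet barcodes with few molecules, taken here to hold no cell. Its members, chosen by their measured UMI totals, are the 589592 droplet barcodes with 1 to 200 unique molecular identifiers (UMIs, tags that count captured transcripts), of 599690 barcodes with any UMI in the WT matrix. Their counts were summed and set against the sum of 4541 cells, which are barcodes with at least 5610 UMIs, at least 500 genes and at most 15% mitochondrially encoded UMIs. The free sum held 9842505 UMIs, 8.30% of all, from 16373 genes, and the cell sum held 104643444 UMIs, 88.3% of all. Because both sums rest on that choice, the values below are a description of 1 library and carry no test. Whether each free barcode was a droplet without a cell was not tested.

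The study profiled pancreatic islets by droplet single-cell RNA sequencing with the 10x Genomics 3′ v2 kit. One library came from WT mice and 1 from mice whose miR-203 transgene is placed in beta cells by the labels. Both groups were males aged 8 weeks after a 12-hour fast, and the labels do not say how many animals gave each library or which promoter drives the transgene. The preparation texts name frozen islets, TRIZOL and an intestinal goblet cell sort, and 9 genes that mark goblet cells gave 9 UMIs in the free sum and 180 in the cell sum.

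When islets are digested and dispersed, cells that break release their RNA into the suspension, and every droplet takes up a little of it. Droplets without a cell record that free RNA, which also enters the droplets with a cell and is often called ambient RNA or soup. Islets are clusters of hormone-secreting cells inside an exocrine pancreas, whose acinar cells make digestive enzymes in very large amounts and are fragile once dissociated.

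The droplets were not of one make. There were 136686 barcodes with a single UMI, the number fell to 323 barcodes at 48 UMIs, and a second peak of 1488 barcodes stood at 96 UMIs. Barcodes of 1 to 10 UMIs were 81.7% of the free barcodes but gave 14.7% of the free UMIs. Insulin was 40.8% of their UMIs, against 32.15% at 51 to 100 UMIs and 42.6% in cells. Each barcode is called a droplet here, and whether barcodes this small were droplets of their own was not tested. Droplets of 11 to 50 UMIs gave 7.36%, those of 51 to 100 gave 36.2% and those above 100 gave 41.7%, so the sum is mostly that of the second peak. At the upper limit, the 837 droplets of the last 10 UMI values inside it and the 679 of the first 10 outside it had 10.9% and 10.7% mitochondrially encoded UMIs, and 34.4% and 34.99% insulin UMIs. Their acinar genes had 1920 and 2024 CPM (UMI counts scaled to the same fixed total in every sum).

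**Figure D1:**
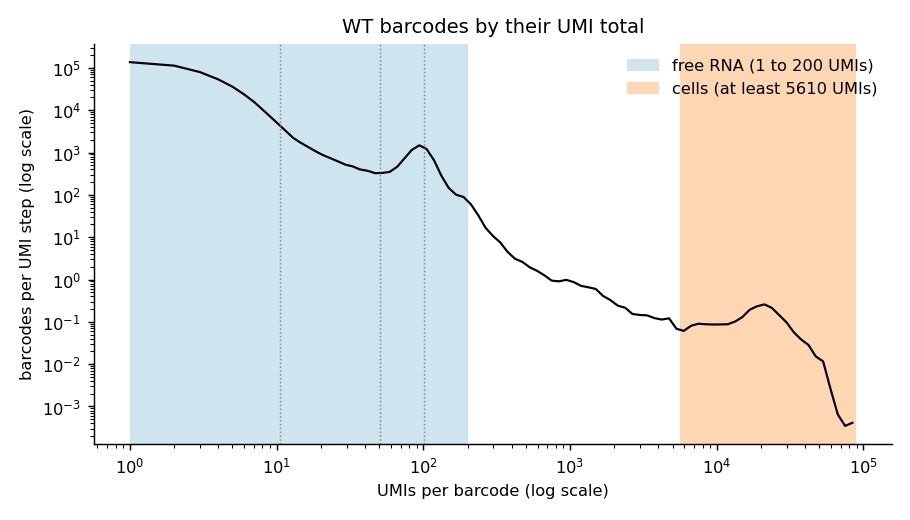
WT barcodes by their UMI total: the x axis gives UMIs per barcode and the y axis barcodes per UMI step, both on log scales. Blue marks the free RNA barcodes of 1 to 200 UMIs, with dotted lines at the borders of the bands used below, and orange the range of at least 5610 UMIs; the second peak at 96 UMIs lies inside the blue range.

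Of 27998 genes, 4444 had at least 20 CPM in either sum. Each gene's ratio is the log2 of its CPM in free RNA over its CPM in cells, relative to the median of these genes, which lay at log2 0.18 (1.13-fold higher in free RNA). A gene was counted as over- or under-represented at 1.5-fold from that median. By that rule 78 genes (1.76%) were over-represented and 131 (2.95%) under-represented, together 4.70%. For 53 (1.19%) and 68 (1.53%) the whole 95% interval lay beyond 1.5-fold. At 2-fold there were 33 (0.743%) and 24 (0.540%), and 21 genes (0.473%) were over-represented at least 8-fold. Of the 4444 genes, 559 reached 20 CPM in free RNA alone and 89 in cells alone, so these entered through their higher side. With 20 CPM asked in both sums, 29 of the 78 over-represented and 86 of the 131 under-represented genes were still called. Intervals are exact binomial for ratios and shares and exact Poisson for CPM, and they cover counting error only. The split between both directions depends on the scaling: 37.3% of the calls were over-represented here, 29.3% with the trimmed mean of M values (67 over, 162 under), 61.9% without hormone and mitochondrially encoded UMIs and no centring (120 over, 74 under), and 78.1% without centring (189 over, 53 under). It also depends on droplet size: with only droplets of 1 to 50 UMIs, 54 of the 78 over-represented genes were still called but 11 of the 131 under-represented ones, and with 1 to 10 UMIs 58 and 17. With droplets of 51 to 200 UMIs alone they were 62 and 128, so most of the under-represented calls rest on droplets of the second peak.

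**Figure D2:**
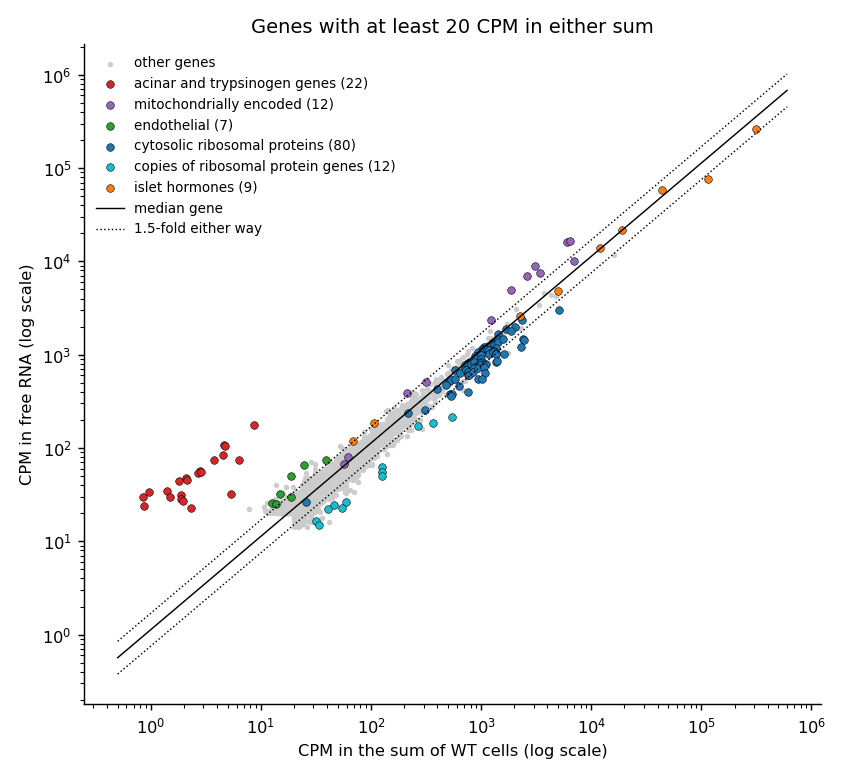
Each point is 1 of the 4444 genes, with its CPM in the sum of WT cells on the x axis and its CPM in free RNA on the y axis, both on log scales. The solid line is the median gene and the dotted lines are 1.5-fold either way; the acinar and trypsinogen genes (red) stand far above the line at 0.850 to 8.68 CPM in cells, and 12 copies of ribosomal protein genes (cyan) lie below the lower dotted line.

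The genes that stood farthest above cells were those of acinar cells. The 38 acinar genes found in the gene list together reached 1119 CPM (1098 to 1140) in free RNA and 66.0 CPM (64.4 to 67.6) in cells, a 16.96-fold difference. Free CPM was higher for 33 of the 38 and lower for 3, and the others had no UMI in either sum; of the 4444 genes at the CPM limit 3411 also had the higher CPM in free RNA. The 18 members with at least 20 CPM passed that limit through free RNA alone, so they had to be higher there and their count supports nothing.

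Trypsinogens, the inactive forms of the protease trypsin, made up much of this group. The trypsinogen Try5 had 107.5 CPM in free RNA and 4.66 CPM in cells, a log2 ratio of 4.35 (4.19 to 4.51). Try4 had 105.7 CPM and 4.73 CPM, a log2 ratio of 4.31 (4.15 to 4.46). Ctrb1, a chymotrypsinogen, was the most abundant acinar transcript named, with 176.1 CPM in free RNA and 8.68 CPM in cells and a log2 ratio of 4.17 (4.05 to 4.28). All 3 were above 100 CPM in free RNA and under 10 CPM in cells.

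Other enzymes and their inhibitor lay in the same range. Spink1, a trypsin inhibitor made with the enzymes, had 23.8 CPM in free RNA and 0.860 CPM in cells (log2 4.61, 4.26 to 4.98). Cpb1, a carboxypeptidase, had 34.5 CPM and 1.40 CPM (log2 4.45, 4.17 to 4.74). Cela3b, an elastase, stood at log2 4.09 and Ctrl, a chymotrypsin-like protease, at 4.14. The lowest members were Rnase1, a secreted ribonuclease, at 3.12 and the elastase Cela1 at 2.41 (2.21 to 2.62), with 32.1 CPM in free RNA and 5.33 CPM in cells.

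The highest ratios of all genes belonged to a pair that had not been put in the acinar list, 1810009J06Rik and Gm2663, both at log2 4.95. They had 29.7 and 33.4 CPM in free RNA and 0.850 and 0.956 CPM in cells. Both passed the 20 CPM limit through free RNA alone, so they had to be higher there. The same holds for the unlisted Gm5771 and Gm10334, at 2.14 and 3.74 CPM in cells. With Gm5771 (4.22), Gm10334 (4.14) and 2210010C04Rik (4.17) the pair lies among the trypsinogens on chromosome 6. There 10 such genes at the CPM limit span 40964754 to 41525079 (GRCm38, GENCODE M21). The coding parts of these 10 genes were 71.4% to 99.5% equal over 45 pairs, with a median of 78.0%, so reads of close copies could be split between them and the values of single copies are uncertain. The first 90 coding bases of the closest pair are shown as an example of how alike the coding parts are, with the 2 differing positions in capitals. Parts outside the coding sequence, where reads of a 3′ kit may fall, were not compared. 1810009J06Rik lies on the forward strand at 40964754 to 40968435 and Gm2663 on the reverse strand at 40995830 to 40999479.
1810009J06Rik: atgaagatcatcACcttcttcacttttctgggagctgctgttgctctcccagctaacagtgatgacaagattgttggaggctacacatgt
Gm2663: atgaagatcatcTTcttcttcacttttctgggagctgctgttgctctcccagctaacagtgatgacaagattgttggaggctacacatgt

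Acinar transcripts were spread over many droplets and also concentrated in a few. A UMI of the list was seen in 7446 free droplets (1.26%), and at most 90 in 1 droplet. The 182 droplets with at least 5 held 22.9% of these UMIs, and the remaining droplets still had 865 CPM. In cells, 2157 (47.5%) had a UMI of the list, 1 cell had 1271, and the 45 cells with most held 49.9% of them. Cells had a median of 21649 UMIs and free droplets of 3, and the measures differ. Which of both was more uneven was therefore not tested. In the other 4496 cells the level was 33.4 CPM, which is lower by construction, since the cells left out were those with most.

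The acinar share changed with the size of the droplet, and was highest beyond the free range. It was 809 CPM in droplets of 1 to 10 UMIs, 489 CPM at 11 to 50, 1091 CPM at 51 to 100 and 1364 CPM above 100. Barcodes too large for the free sum and too small for a cell had 2633 CPM up to 500 UMIs, 7905 CPM above 500 and up to 1000, 7409 CPM up to 2000 and 2215 CPM from there to 5609. In those 5548 barcodes, 62 with at least 5 acinar UMIs held 93.7% of the list, and the rest had 255 CPM, below the level of free RNA. Whether such barcodes are whole acinar cells, fragments or clumps was not tested.

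Mitochondrially encoded transcripts, which code for subunits of the respiratory chain and ATP synthase, were the largest over-represented group by number of molecules. They were 7.46% of free UMIs (7.45 to 7.48) and 3.23% of cell UMIs (3.22 to 3.23). The cell rule itself caps this share at 15%, and it removed 6 barcodes. Of the 12 genes at the CPM limit, 8 were over-represented and 0 under-represented, with a median of log2 0.85, against 0 for all genes. Over all genes 1.76% were over- and 2.95% under-represented.

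The members did not move alike. mt-Cytb, cytochrome b of complex III, had 8908 CPM in free RNA and 3060 CPM in cells (log2 1.37, 1.36 to 1.38). mt-Atp6, an ATP synthase subunit, had 16250 CPM and 5979 CPM (log2 1.27). mt-Nd1 stood at log2 1.26, mt-Nd4 at 1.24 and mt-Co3 at 1.18, while the abundant mt-Co1, a cytochrome c oxidase subunit, stood at 0.35. The low members mt-Nd4l, at log2 0.20 (0.09 to 0.30), and mt-Atp8, at 0.07 (-0.05 to 0.18), were near the median gene.

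The mitochondrially encoded share followed droplet size much as the acinar share did. It was 7.21% in droplets of 1 to 10 UMIs, 4.39% at 11 to 50, 6.06% at 51 to 100 and 9.31% above 100. Beyond the free range it went on to 19.5% up to 500 UMIs and 33.9% up to 1000, and it was 26.3% up to 2000 and 5.64% from there to the cell limit. Each of these bands was above the 3.23% of cells, and the band of 11 to 50 UMIs was the lowest.

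**Figure D3:**
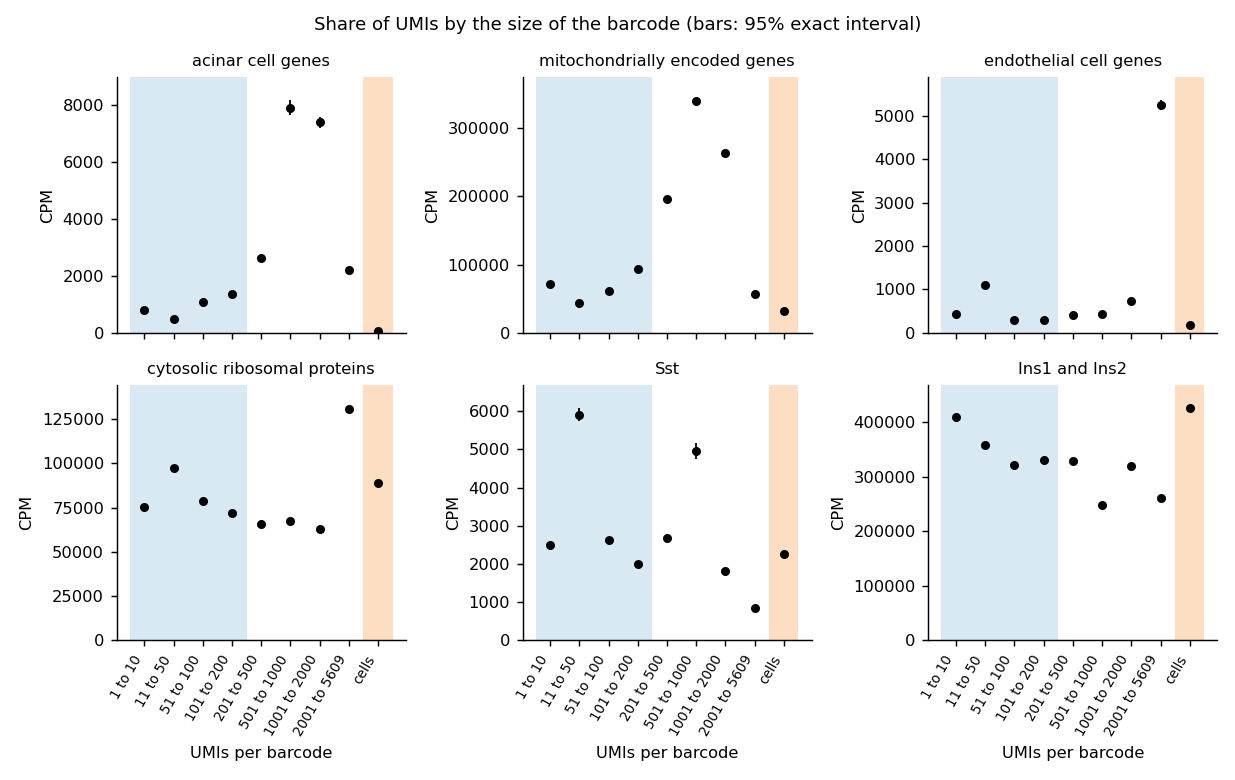
Shares of UMIs in CPM (y axes, linear from 0) by UMIs per barcode (x axes) for 4 gene lists, Sst and insulin; points are the summed barcodes of a band and bars their 95% exact intervals, with the free RNA bands shaded blue and cells orange. The acinar and mitochondrially encoded shares peak between 500 and 1000 UMIs, at 7905 CPM and 33.9%, and the band of 11 to 50 UMIs stands apart for endothelial genes (1101 CPM) and Sst (5905 CPM).

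Genes of endothelial cells, which line the dense capillaries of islets, together had a higher level in free RNA. The 16 genes together had 378 CPM (366 to 390) in free RNA and 185 CPM (183 to 188) in cells. Of the 7 at the CPM limit, 5 passed it through free RNA alone, so their count of 6 over-represented is no support. Igfbp3, a binding protein for insulin-like growth factors, had 49.99 CPM in free RNA and 18.6 CPM in cells (log2 1.25, 1.11 to 1.40), and Ly6c1, a surface protein of endothelial cells, had 65.1 CPM and 24.6 CPM (log2 1.23, 1.1 to 1.35). The VEGF receptors Kdr and Flt1 stood at log2 0.68 (0.48 to 0.88) and 0.48 (0.30 to 0.66).

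This difference depended on how cells were weighted and on droplet size. With every cell given equal weight, the endothelial median turned from log2 0.87 to -0.31, Kdr to -0.56 and Flt1 to -0.74, and Igfbp3 and Ly6c1 fell to 0.03 and 0.12, near the median gene. In cells, 151 with at least 5 of these UMIs held 80.9% of the list, and 6 free droplets of that kind held 0.941%. Cells had a median of 21649 UMIs and free droplets of 3, so this cut cannot compare their spread. By band the list had 426 CPM at 1 to 10 UMIs, 1101 CPM at 11 to 50, 305 CPM at 51 to 100 and 296 CPM above 100, so the second peak was nearest to cells. The highest level, 5243 CPM, lay in barcodes above 2000 and up to 5609 UMIs, which belong to neither sum. With droplets of 51 to 200 UMIs alone the median was log2 0.58, at the edge of the limit.

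Further over-represented genes in no list were named after their values were seen, and their ratios with equal weight per cell were not computed. Esm1, a secreted proteoglycan, had 70.9 CPM in free RNA and 28.5 CPM in cells (log2 1.14). Ctla2a stood at log2 1.32, Ly6a at 0.99, Plpp1 at 0.94, Rgcc at 0.91 and Plpp3 at 0.89. The chemokine Cxcl1 stood at 1.01 and the kinase gene Sgk1 at 0.88. In the mesenchymal list, Sparc, a matrix protein, stood at 0.98.

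Immune genes were closer to the median gene. Of 14 interferon and antigen presentation genes at the limit, 3 were over-represented and 0 under-represented, with a median of log2 0.40. The shares over all genes were 1.76% and 2.95%, and 3 of the 14 passed the limit through free RNA alone. Ifitm3, an antiviral membrane protein, had 67.1 CPM in free RNA and 31.0 CPM in cells (log2 0.94, 0.81 to 1.06), and B2m, the light chain of MHC class I, had 255.6 CPM and 141.3 CPM (log2 0.68, 0.62 to 0.74). With equal weight per cell these became -0.10 and 0.04. None of 14 macrophage genes at the limit was called in either direction, with a median of log2 0.22. At the 4.70% called over all genes, that count is no result about so short a list. The chemokine Ccl4 stood at 0.56, lysozyme Lyz2 at 0.49 and the complement gene C1qa at -0.07. The macrophage median was -0.59 with equal weight per cell and 2.47 against cells with at least 20% insulin UMIs. In the cell sum 57.3% of macrophage UMIs lay in 45 cells.

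**Figure D4:**
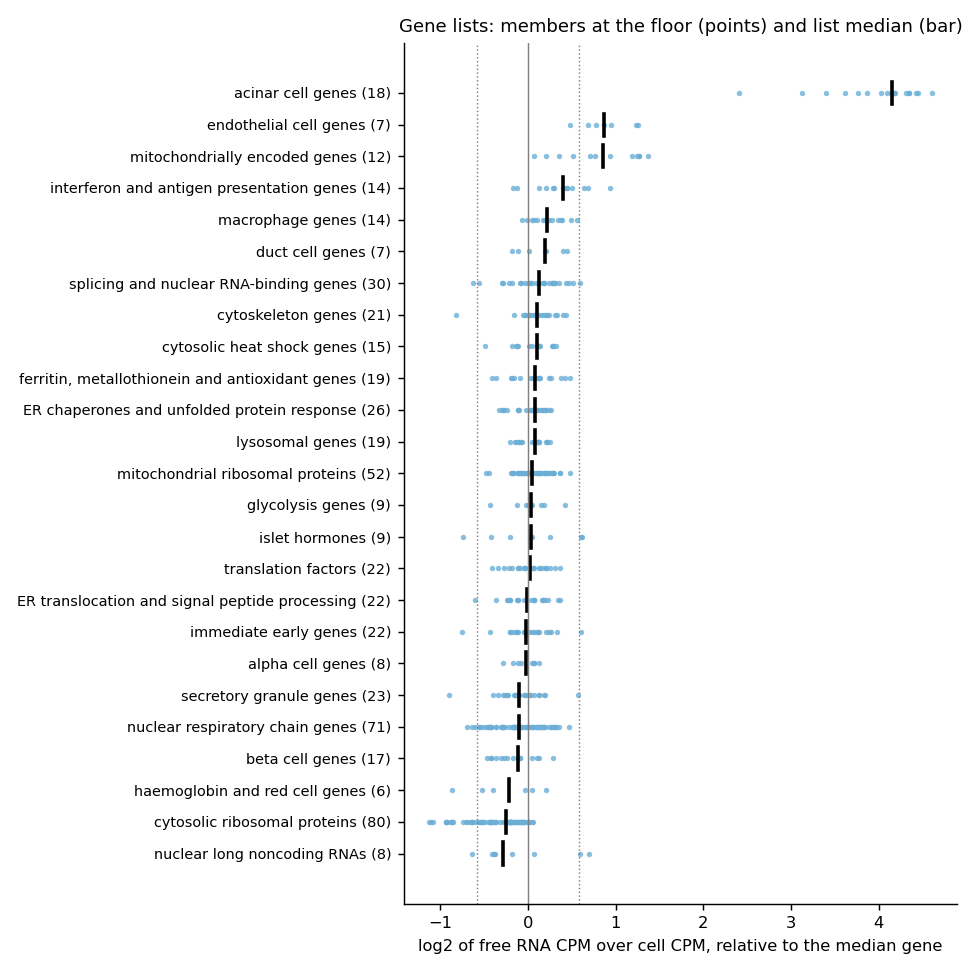
Log2 of free RNA CPM over cell CPM relative to the median gene (x axis) for the 25 gene lists with at least 5 members at the CPM limit, numbers of members in parentheses. Points are genes, black bars are list medians, and dotted lines are 1.5-fold; the acinar list stands at 4.15, the endothelial and mitochondrially encoded lists at 0.87 and 0.85, and the other medians lie between -0.28 and 0.40.

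By number of genes, the largest listed group on the under-represented side was that of cytosolic ribosomal proteins, with 18 of the 131. The 84 listed genes gave 7.69% of free UMIs (7.67 to 7.71) and 8.90% of cell UMIs (8.89 to 8.90). Of 80 genes at the CPM limit, 18 were under-represented and 0 over-represented, with a median of log2 -0.25. The shares over all genes were 2.95% and 1.76%. Rps29, a small-subunit protein, had 1195 CPM in free RNA and 2310 CPM in cells (log2 -1.13, -1.15 to -1.1), and Rpl35, of the large subunit, had 399.8 CPM and 762.5 CPM (log2 -1.11, -1.15 to -1.06). Rps28 stood at -1.08. With only droplets of 1 to 50 UMIs these 3 were within 1.5-fold, at -0.43, -0.39 and -0.48. At the other end, Rpl7 stood at 0.06 (0.02 to 0.09) and Rps27a, of the small subunit, at 0.04.

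Within this family the ratio went with coding length. Across the 80 genes, which share both sums and are not independent replicates, the log2 ratio and coding length had a Spearman correlation of 0.80 and, with length on the log2 scale, a Pearson correlation of 0.77. The 20 shortest, of 75 to 366 coding bases, had a median of log2 -0.77 and 15 of them were under-represented. The 20 longest, of 624 to 1257 coding bases, had a median of -0.08 and 0 were under-represented. Rpl41, with 75 coding bases, stood at -0.92 and Rpl39, with 153, at -0.94.

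Short proteins outside the ribosomal list showed part of this pattern. The list was left out by name only. Protein-coding near-copies of its members, such as Gm10073 (342 coding bases, log2 -1.49), therefore stay in the classes below. Of 185 other protein-coding genes with at most 300 coding bases, 21 (11.4%) were under-represented, against 4.64% up to 450 bases, 0.720% up to 600, 1.56% up to 1200 and 1.87% above that. In the class up to 450 bases, near-copies included, 17 genes were under- and 17 over-represented, so as counted it does not lean to one side. The genes of at most 300 bases had a median of log2 -0.05. Among the short ones, Tomm7, of the mitochondrial import pore, stood at log2 -0.72 (156.6 CPM in free RNA and 228.7 CPM in cells). Romo1, a small mitochondrial membrane protein, stood at -0.62, and Snrpg, a core splicing protein, at -0.64. Of 71 nuclear respiratory chain genes 3 were under-represented, near the 2.95% of all genes and so no result about this list; its median was -0.10.

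**Figure D5:**
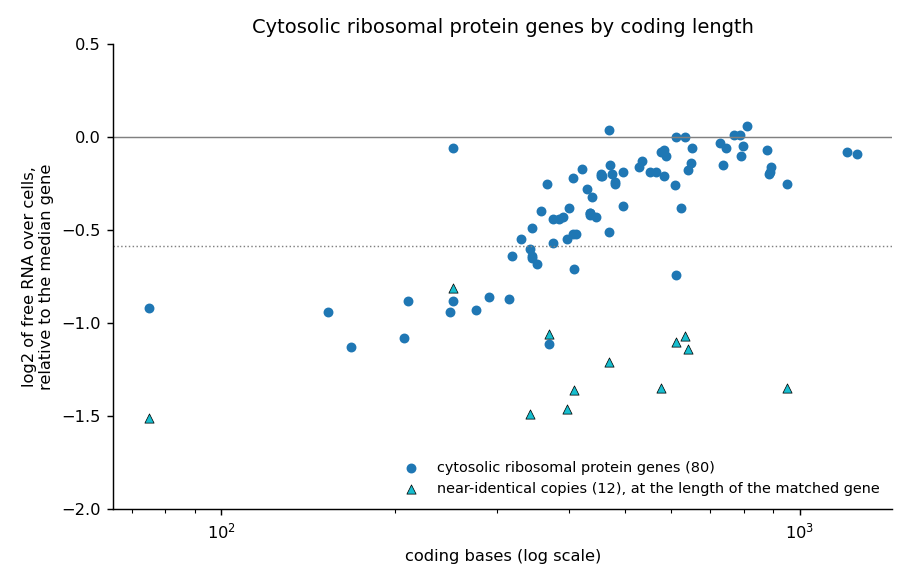
Log2 of free RNA over cells relative to the median gene (y axis) against coding bases (x axis, log scale) for 80 cytosolic ribosomal protein genes (circles) and 12 genes that nearly copy one of them (triangles, placed at the length of the gene they match). Circles rise from near -1 at the short end to near 0 at the long end, and the 12 triangles shown lie under the dotted line at 1.5-fold.

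Near-identical copies of ribosomal protein genes were among the lowest genes of all. Outside the ribosomal list, 12 genes at the CPM limit carried a stretch at least 90% equal to at least 50% of the coding part of a listed cytosolic ribosomal protein gene. Of these 12 were under-represented and 0 over-represented, with a median of log2 -1.28, against -0.57 for the genes they match, and 10 stood lower than their match. This set was narrowed after the values were seen: a wider match, not reported here, also took in genes that were not under-represented, so the count supports nothing.

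The copies of Rpl41 and Rplp1 show how little the coding bases of such pairs can differ. Gm10076, a noncoding gene on chromosome 14 (105681828 to 105682211, forward strand), holds the 75 coding bases of Rpl41 (chromosome 10, 128548114 to 128549305, reverse strand) without a difference. It had 214.8 CPM in free RNA and 542.6 CPM in cells (log2 -1.51, -1.58 to -1.45). Gm10073, on chromosome 8 (106572966 to 106573461, reverse strand), differs from Rplp1 (chromosome 9, 61913284 to 61914542, reverse strand) at 3 positions of coding bases 169 to 258, given in capitals. It had 50.1 CPM in free RNA and 124.5 CPM in cells (log2 -1.49, -1.62 to -1.36), while Rplp1 itself stood at -0.60. How reads that fit both members of a pair were counted is not given in the sources used here, so the level of each copy is uncertain. Sequences and coordinates are those of GENCODE M21 on GRCm38.
Rpl41: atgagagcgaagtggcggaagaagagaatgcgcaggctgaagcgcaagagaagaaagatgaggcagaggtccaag
Gm10076: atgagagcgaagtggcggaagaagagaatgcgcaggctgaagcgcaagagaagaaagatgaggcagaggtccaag
Rplp1: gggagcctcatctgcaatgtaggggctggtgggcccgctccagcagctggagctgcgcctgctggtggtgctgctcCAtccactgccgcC
Gm10073: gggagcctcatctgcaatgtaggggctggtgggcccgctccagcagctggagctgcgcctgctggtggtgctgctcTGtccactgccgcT

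Among the copies, levels by band are given for Gm10076 only, which was lowest in the second peak of droplets. Gm10076 had 373.4 CPM in droplets of 1 to 10 UMIs, 407.1 CPM at 11 to 50, 179.4 CPM at 51 to 100 and 155.6 CPM above 100, all below the 542.6 CPM of cells. With only droplets of 1 to 50 UMIs its ratio was within 1.5-fold (log2 -0.51), and with 1 to 10 UMIs so was that of Gm10073 (-0.28). Rps29 had 1570, 2067, 1071 and 1016 CPM in the same bands, against 2310 CPM in cells. The long ribosomal gene Rpl7 had 537.0, 761.7, 740.8 and 678.9 CPM, against 584.1 CPM.

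Outside these groups the lowest gene was Ccdc85b, which encodes a coiled-coil protein, with 15.9 CPM in free RNA and 41.4 CPM in cells (log2 -1.55, -1.79 to -1.32). It passed the 20 CPM limit through cells alone, so it had to be lower in free RNA. Prkca, a protein kinase C, had 33.9 CPM and 70.6 CPM (log2 -1.23, -1.39 to -1.07). Among genes named after their values were seen, the phosphodiesterase Pde10a stood at -1.05 and Auts2 at -0.99. Jund, an AP-1 transcription factor, had 934.1 CPM in free RNA and 1395 CPM in cells (log2 -0.75), and Tmsb10, an actin-binding peptide, stood at -0.82. The calls were lost in the smaller droplets: with 1 to 50 UMIs Ccdc85b stood at -0.34, and with 1 to 10 UMIs Prkca stood at -0.58, Jund at -0.25 and Tmsb10 at -0.11.

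Of 8 listed nuclear noncoding RNAs at the CPM limit, 5 stood below the median gene and 3 above, with a median of log2 -0.28. Of all 4444 genes 2222 stood above it, so this split is no result about so short a list. Malat1, which is retained in nuclear speckles, had 11710 CPM in free RNA and 16210 CPM in cells (log2 -0.64, -0.65 to -0.64), and was within 1.5-fold without centring (-0.47) and with only droplets of 1 to 50 UMIs (-0.27). Neat1, the scaffold of paraspeckles, had 385.0 CPM and 227.0 CPM (log2 0.59, 0.54 to 0.64), at the edge of the limit, and was within 1.5-fold with the trimmed mean of M values (0.55) and with most other alternatives. Gm42418 stood at 0.70, and whether its reads come from a nuclear noncoding RNA was not tested. Meg3 stood at -0.38 and Kcnq1ot1 at -0.41. The list as a whole was 1.45% of free UMIs and 1.91% of cell UMIs.

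Genes of the endocrine cells stayed near the median gene, apart from a few. Insulin, from Ins1 and Ins2, was 34.04% of free UMIs (34.01 to 34.07) and 42.6% of cell UMIs. Ins1 stood at log2 -0.74 and Ins2 at -0.42, whereas the co-secreted Iapp stood at 0.25, Gcg at 0.03, Sst at 0.02, Ppy at 0.05 and Pyy at -0.20. Gast and Cck, gut-type hormones, stood at 0.62 (0.54 to 0.69) and 0.60 (0.51 to 0.69), and 93.8% and 90.7% of their cell UMIs lay in 45 cells. With only droplets of 1 to 50 UMIs both were within 1.5-fold (0.33 and 0.39). None of 17 beta cell genes and none of 8 alpha cell genes at the limit was called in either direction, with medians of -0.12 and -0.02. Over all genes 4.70% were called, so in lists this short these counts are no result.

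Near the 1.76% and 2.95% of all genes, and so no result about the list, 0 of 23 secretory granule genes were over- and 1 under-represented. That gene was Pcsk2, the prohormone convertase that cuts proglucagon and proinsulin, with 1050 CPM in free RNA and 1738 CPM in cells (log2 -0.90, -0.93 to -0.87), and -0.51 with only droplets of 1 to 50 UMIs. Pam, which amidates peptide hormones, stood at the other end at 0.57 (0.51 to 0.63). Its level was uneven over droplets, with 516.3 CPM at 1 to 10 UMIs, 644.4 CPM at 11 to 50, 215.6 CPM at 51 to 100 and 160.5 CPM above 100, against 160.2 CPM in cells.

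Housekeeping and stress genes were carried into free RNA at close to the median ratio. No gene was called in either direction among 52 mitochondrial ribosomal, 22 translation factor, 26 ER chaperone, 15 cytosolic heat shock, 19 lysosomal, 9 glycolysis, 19 ferritin, metallothionein and antioxidant, and 7 duct genes at the limit. Their medians lay between log2 0.02 and 0.19. Over all genes 4.70% were called, so for the shorter lists the absence of a call is no result. Of 22 immediate early genes 1 was called in each direction, Ier3 at 0.60 and Jund at -0.75. Of 30 splicing and RNA-binding genes 1 was called in each direction, Hnrnph1 at 0.59 and Son at -0.63. Both lists were near the 1.76% over- and 2.95% under-represented among all genes, so these counts are no result about them.

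Red cell genes were few in both sums, 576 CPM in free RNA and 609 CPM in cells for a list of 13, which holds the haemoglobins and also genes such as Mkrn1 (84.5 and 72.3 CPM) and Fech (25.9 and 19.8 CPM). Hba-a1 had 86.4 CPM and 139.7 CPM (log2 -0.87), but 97.4% of its cell UMIs lay in 45 cells, and its ratio was 4.12 against cells with at least 20% insulin UMIs. In free droplets of 11 to 50 UMIs the list reached 1006 CPM, and 30 droplets held 75.6% of it there.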

How the data were processed

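The authors deposited, per the file headers, whole-number UMI counts for each gene in each barcode, with no normalisation. Per the submitters' processing notes, reads passed FastQC and Trimmomatic and the build was mm10; what aligned and counted them, and with which annotation, is not given in the sources used here. All 4 droplet bands, the gene lists and the members were chosen with earlier results of these data known. The cell limit of 5610 UMIs is 10% of the UMIs at the 99th percentile among the 3000 largest barcodes; 4550 barcodes reached it, 3 had under 500 genes and 6 over 15% mitochondrially encoded UMIs. Doublets were not removed.

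Counts were summed, turned into CPM and compared as log2 ratios relative to the median gene. With 1 library per group there are no replicates and no tests. Intervals (95%) cover counting error only. The rule for named genes takes the 15 genes with the highest lower bound and the 15 with the lowest upper bound (islet hormones apart), the 2 highest and 2 lowest members of each list with at least 5 members at 20 CPM, and 7 hormones; other names were chosen after their values were seen. Gene positions and coding lengths come from GENCODE M21 (4442 of 4444 genes matched); copies were matched by local alignment. Some genes that the naming rule or the match of copies takes in are not reported here. The alternatives changed droplet limits, the CPM limit, scaling, the cells used and the fold; 3 were chosen after seeing the data (droplets of 51 to 200 UMIs, and leaving out acinar-rich droplets or cells). Scripts were tested on simulated data and used Python 3.11.15, numpy 2.4.6, scipy 1.17.1, pandas 2.3.3 and matplotlib 3.10.9. The copy of the transgenic matrix at hand held 547 whole entries and is used only in the closing section.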

Additional observations from a re-analysis of the deposited data

Results flagged for a closer look

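The copy of the transgenic (TG) matrix at hand held 782 UMIs in 59 barcodes, the largest with 110 UMIs, so these are small droplets too, and they were used in no comparison above. They are the first barcodes of the matrix, not a sample of it, and with 1 library per group genotype and library cannot be told apart. Acinar genes gave 8 of these UMIs, 1.02% (exact binomial 95% interval 0.443 to 2.01), above the 0.112% of WT free RNA. The 8 UMIs lay in 3 barcodes, and 4 of them were Ctrb1 in 1 barcode. Secretory granule genes gave 19 UMIs in 11 barcodes, 2.43% (1.47 to 3.77), against 1.44% in WT free RNA, with 6 of Chga and 4 of Chgb. Insulin was lower, at 13.2% (10.9 to 15.7) against 34.04%, and the islet hormones together were 38.5% (35.1 to 42.0) against 44.3%. Immediate early genes gave 0 UMIs, which allows a share of up to 0.471%, against 0.494%. The intervals of the lists compared in this way are not corrected for their number.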

How the results depend on the processing

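Of 449 list medians recomputed under the alternatives, 437 stayed within the fold limit or passed it in the same direction, as in the main setting. Medians within the limit could change sign and still count among these. That of the beta cell genes (-0.12), for example, ranged from -0.41 to 0.05. The acinar median ranged from 3.66 to 5.36, the mitochondrially encoded one from 0.60 to 1.19 and the ribosomal one from -0.31 to -0.03. Over-represented genes (78) became 265 with droplets of 1 to 10 UMIs, 195 with 1 to 50, 209 with a limit of 5 CPM, 31 with 50 CPM, 32 with 20 CPM in both sums, 120 without hormone and mitochondrially encoded UMIs, 189 without centring, 194 against cells with at least 20% insulin UMIs and 33 at 2-fold. Under-represented genes (131) became 50 with droplets of 1 to 50 UMIs, 282 at 5 CPM, 80 at 50 CPM, 86 at 20 CPM in both sums, 74 without hormone and mitochondrially encoded UMIs, 53 without centring and 24 at 2-fold. Other CPM limits test other numbers of genes; for the other settings the cause was not tested.

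The macrophage median (0.22) was 0.61 with droplets of 1 to 10 UMIs, and the interferon median (0.40) was 0.68 with 1 to 50. The endothelial median was 0.58 with 51 to 200 UMIs. With every cell given equal weight, the medians were -0.31 for endothelial, -0.59 for macrophage and -0.80 for haemoglobin genes, and Ifitm3 (-0.10), Kdr (-0.56), Ier3 (-0.14), Flt1 (-0.74) and Sst (-0.61) turned. Against cells with at least 20% insulin UMIs, which leaves out other islet and non-islet cells with less insulin, the medians were 2.18 for hormones, 4.11 for haemoglobin, 2.47 for macrophage and 0.84 for interferon genes, and C1qc (2.46), C1qa (0.74), Pyy (2.22), Hba-a2 (4.36) and Hba-a1 (4.12) turned. Hba-a1 also turned with droplets of 1 to 10 (0.24) and 1 to 50 UMIs (0.27). At 2-fold the mitochondrially encoded (0.85) and endothelial (0.87) medians no longer passed. Leaving out acinar-rich droplets or cells gave 75 or 77 over- and 131 or 128 under-represented genes. No paired analysis was possible because each group has 1 library.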

Other observations

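Free droplets of 11 to 50 UMIs, which lie between both peaks of the UMI distribution, differed in make from the droplets around them. Sst had 5905 CPM there, against 2492 CPM at 1 to 10 UMIs, 2617 CPM at 51 to 100 and 2248 CPM in cells. Malat1 had 17760 CPM, against 11480 and 11930 CPM in the neighbouring bands and 16210 CPM in cells. Actb had 4011 CPM, against 2990 and 1467 CPM and 1206 CPM in cells. Mesenchymal genes had 864 CPM, against 342 and 336 CPM and 258 CPM in cells, and cytosolic ribosomal protein genes 9.75% of UMIs, against 7.51% and 7.88% and 8.90% in cells. These 32197 droplets gave 7.36% of the free UMIs.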
